A study of Homo sapiens with 5 samples.

Results

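The genes described here encode the enzymes, scaffolds and readers that keep chromatin silent: polycomb proteins, histone H3 lysine 9 (H3K9) methyltransferases and their readers, histone deacetylases with the NuRD, SIN3 and CoREST complexes, and proteins that read methylated CpG or remodel methylated and repetitive chromatin. The list holds 44 genes, chosen by name and grouped by complex, and 39 of them have an entry of their own among the 20220 entries used from the table of RefSeq genes. The data are 5 RNA-seq libraries of HEK 293T, a transformed human embryonic kidney cell line that the labels describe as non-malignant, grown in the presence or absence of 5-aza-2'-deoxycytidine (5-aza-CdR), a nucleoside drug that cells incorporate during replication and that depletes DNA methyltransferases. The control group had 2 libraries from cells that received no drug, and the treated group had 2 libraries from cells given 1.0 µM of the drug for 3 days. The recovery group had 1 library, from treated cells kept for 30 further days in drug-free medium. All groups are the same line with no engineered allele named in the labels. The labels mention triplicate cultures but not which of them gave each library. The authors deposited a single FPKM (fragments per kilobase of transcript, scaled to sequencing depth, and so a level per length) for each gene and group, so no value below has a spread between libraries, and every ratio is a description of size without a replicate check. In bulk RNA, fewer cells that express a gene and less RNA per cell cannot be told apart.

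Polycomb repressive complex 2 (PRC2) methylates histone H3 at lysine 27, and polycomb repressive complex 1 (PRC1) ubiquitinates histone H2A and compacts chromatin. Methyltransferases of H3K9 and the HP1 proteins that bind this mark build constitutive heterochromatin, while deacetylase complexes remove the acetyl groups that go with transcription. Methyl-CpG-binding proteins link DNA methylation, the modification that 5-aza-CdR depletes, to those complexes.

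Promoter sequence is shown for the genes on which the data below bear most directly. HDAC8, RING1 and EHMT2 had at least 2-fold more RNA than control in a drug-exposed group. EHMT2, MBD1 and SETDB2 are the 3 of 39 members with the authors' mark headed DNA methylation, which reads Affected. CBX7 was also past 2-fold higher, but under 2 FPKM in every group, and its window of 41 CpG is not shown. Each run is the 250 bases before the annotated start, written 5′ to 3′ on the gene's own strand from RefSeq (GRCh38.p14), with every CpG, the dinucleotide that human DNA methyltransferases modify, in capitals. The windows lie at chrX:72572844-72573093 (HDAC8, minus strand), chr6:33208250-33208499 (RING1, plus strand), chr6:31897699-31897948 (EHMT2, minus strand), chr18:50281768-50282017 (MBD1, minus strand) and chr13:49444024-49444273 (SETDB2, plus strand).
HDAC8: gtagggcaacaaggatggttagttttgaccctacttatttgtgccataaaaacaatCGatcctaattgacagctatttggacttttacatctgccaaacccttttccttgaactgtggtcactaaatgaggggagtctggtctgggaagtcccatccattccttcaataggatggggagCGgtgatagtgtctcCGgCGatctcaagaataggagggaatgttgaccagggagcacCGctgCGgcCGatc
RING1: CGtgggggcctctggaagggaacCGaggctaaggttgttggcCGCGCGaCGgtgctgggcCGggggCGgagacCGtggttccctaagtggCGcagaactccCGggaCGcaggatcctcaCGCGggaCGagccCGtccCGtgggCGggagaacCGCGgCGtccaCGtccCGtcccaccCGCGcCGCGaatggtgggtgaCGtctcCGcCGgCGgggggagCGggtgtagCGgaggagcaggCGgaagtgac
EHMT2: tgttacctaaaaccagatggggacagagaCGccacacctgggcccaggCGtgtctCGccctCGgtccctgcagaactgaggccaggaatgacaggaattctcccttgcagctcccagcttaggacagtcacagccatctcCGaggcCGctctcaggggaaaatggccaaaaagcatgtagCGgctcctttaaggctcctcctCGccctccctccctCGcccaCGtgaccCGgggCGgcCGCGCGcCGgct
MBD1: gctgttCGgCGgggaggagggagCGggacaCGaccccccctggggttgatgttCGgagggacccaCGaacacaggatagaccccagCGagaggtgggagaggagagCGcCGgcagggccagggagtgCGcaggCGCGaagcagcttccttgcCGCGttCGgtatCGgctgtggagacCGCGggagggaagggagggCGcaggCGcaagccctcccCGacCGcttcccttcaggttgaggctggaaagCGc
SETDB2: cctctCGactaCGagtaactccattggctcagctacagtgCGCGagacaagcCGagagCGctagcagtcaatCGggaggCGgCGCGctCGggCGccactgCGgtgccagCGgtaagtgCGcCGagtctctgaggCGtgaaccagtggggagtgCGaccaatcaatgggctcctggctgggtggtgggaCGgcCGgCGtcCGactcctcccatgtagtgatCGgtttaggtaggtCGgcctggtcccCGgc

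The HDAC8 window holds 7 CpG and the RING1 window 34, which place them at percentiles 41.1 and 93.2 of all windows. The EHMT2 window holds 16, the MBD1 window 23 and the SETDB2 window 25. Windows were given for 39 of the 44 genes, and where a gene had several starts the window with the most CpG was counted. They include BMI1, PCGF1, PCGF2, MBD4 and ZBTB4, which have no entry of their own, and lack CBX2, CBX8, TRIM28, ATRX and DAXX. The median was 25 CpG per gene for the members, with 87.2% holding at least 15. For all genes with an entry the median was 19 and that share 61.9%. Among genes at 5 FPKM or more in control it was 24, with 84.4% holding at least 15, so the members resembled other genes of that level. The highest count was in BMI1 (54 CpG) and the lowest in PCGF2 (1 CpG). Across all genes with an entry and a window, those with the authors' methylation mark had a median of 11 CpG and those without it 20.

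**Figure D1:**
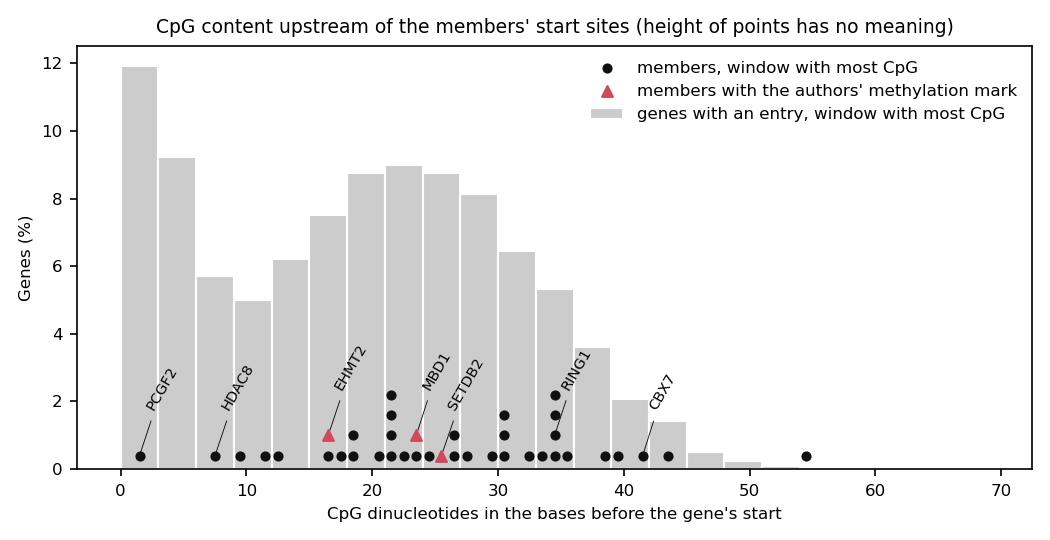
CpG dinucleotides in the 250 bases before the start (x axis, count) for 39 members, shown as points over a histogram of all genes with an entry (y axis, percent of genes), each gene by its window with the most CpG. HDAC8 lies at 7 and RING1 at 34, and the 3 genes with the authors' methylation mark (triangles) lie at 16, 23 and 25.

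No member passed the authors' test in either comparison. In the authors' deposited table, 0 of the 39 members had a q-value (the p-value after adjustment over all tested entries) under 0.05 for treated against control, where 1.36% of the 11256 entries with q under 1 were called. For recovery against control the authors' deposited table called 0 of 39, with 1.34% called over 11174 entries. At those rates fewer than 1 call would fall among 39 genes, so a count of 0 does not set the members apart. The lowest q among members in the authors' deposited table was 0.491 (DAXX, treated), and the lowest for recovery was 0.766 (EHMT2). All but CBX7 had a q under 1, and 37 members for treated and 35 for recovery had in the authors' deposited table a q of 0.9 or more.

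By size, 4 of 39 members (10.3%) differed at least 2-fold between treated and control: HDAC8, RING1 and CBX7 were higher and DAXX was lower. Over all 12712 genes whose mean of the 3 groups was at least 0.5 FPKM, 22.7% did so, 12.4% higher and 10.4% lower. Between recovery and control the members past 2-fold were HDAC8, RING1, CBX7 and EHMT2, all higher and again 4 of 39, against 19.8% of all genes (11.6% higher and 8.15% lower). Both comparisons use the same control value and are not independent. Between recovery and treated, which do not share the control, 0 of 39 members were past 2-fold, against 16.6% of all genes. Low values swing more, and among genes averaging at least 5 FPKM the shares were 3 of 37 members (8.11%) against 14.5% of all genes for treated, and 8.11% against 11.8% for recovery. At that level 0 of 37 members were past 2-fold between recovery and treated, against 726 of 8568 genes.

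A lower bar shows how near the other members came. At 1.5-fold, 10 of 39 members (25.6%) differed between treated and control, with EED and EHMT2 added among the higher genes and EZH1, SETDB2, CBX1 and HDAC1 among the lower, where 41.5% of all genes did (20.8% higher and 20.7% lower). Between recovery and control 12 of 39 (30.8%) did so against 36.8% of all genes (19.3% higher and 17.5% lower), 6 of them higher (EED, RING1, CBX7, EHMT2, HDAC8, MBD3) and 6 lower (EZH2, CBX5, SUV39H2, MBD2, ZBTB33, DAXX). Between recovery and treated it was 6 of 39 (15.4%) against 34.3%, with CBX7, MTA1 and MBD3 higher in recovery and ZBTB33, HELLS and RCOR1 lower.

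The members as a whole stood at nearly the same level in all groups. Their median was 20.2 FPKM in control, 22.7 FPKM in treated and 20.7 FPKM in recovery, and their summed level was 1449, 1400 and 1395 FPKM. Over all genes past the filter the median level was 9.61, 9.74 and 9.86 FPKM, so the typical member lay above the typical gene of these cells. On the log2(FPKM + 1) scale the median difference of the members was 0.06 for treated minus control (0.01 over all genes), -0.09 for recovery minus control (0.00) and -0.07 for recovery minus treated (-0.01). For treated minus control, 28 of 39 members (71.8%) lay within 0.5 of 0 on that scale, against 52.5% of all genes. For recovery minus control it was 24 of 39 (61.5%) against 57.1%, and for recovery minus treated 32 of 39 (82.1%) against 63.6%. Among genes averaging at least 5 FPKM, the distance between the quartiles for treated minus control was 0.57 for 37 members and 0.78 over all genes. It was 0.64 and 0.70 for recovery minus control, and 0.40 and 0.62 for recovery minus treated. The highest member in control was HDAC1, and the lowest in every group was CBX7.

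**Figure D2:**
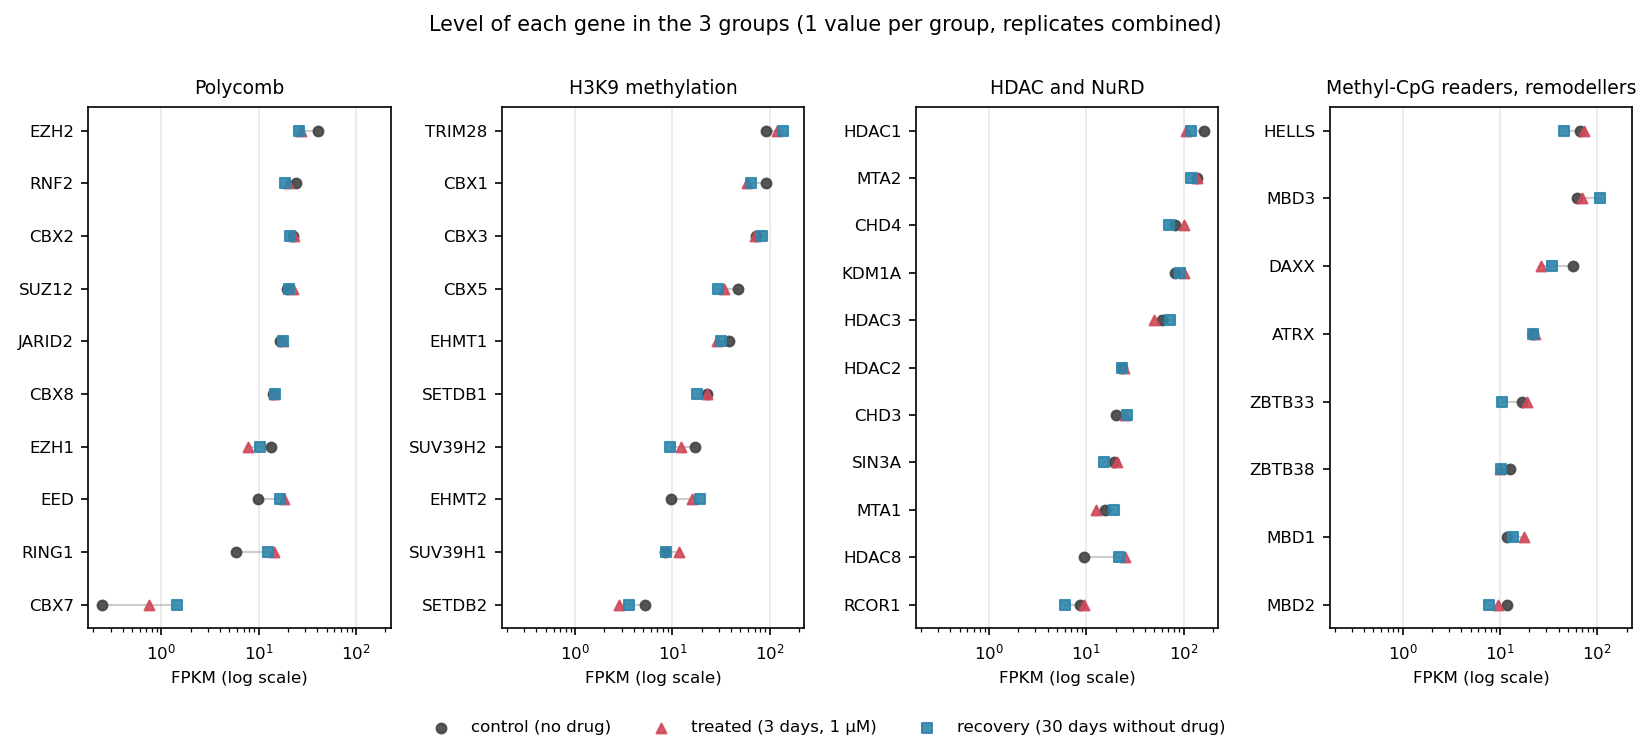
FPKM of each member (log axis) in control, treated and recovery, with 1 deposited value per gene and group and the genes grouped by complex. Levels run from 0.246 FPKM (CBX7, control) to 164 FPKM (HDAC1, control), and for most genes the 3 values lie close together.

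Within PRC2, the catalytic subunits were lower after the drug and the H3K27me3-binding subunit was higher, by less than 2-fold. EZH2, the main methyltransferase of dividing cells, was at 40.4 FPKM in control, 27.5 FPKM in treated and 26.2 FPKM in recovery. Its paralogue EZH1 was at 13.5, 7.85 and 10.4 FPKM, a level 1.72-fold lower in treated than in control. EED, which binds the H3K27me3 mark and stimulates the enzyme, was at 9.76, 18.2 and 16.5 FPKM, or 1.86-fold and 1.69-fold its control level. Both drug-exposed groups were thus above control for EED and below it for both enzymes, with no value past the authors' test. SUZ12, the scaffold subunit, was at 19.6, 22.3 and 20.7 FPKM, and JARID2, an accessory subunit that helps recruit the complex, was at 16.6, 17.8 and 17.6 FPKM. The level of EZH2 was 4.14 times that of EED in control, 1.51 times in treated and 1.59 times in recovery. EZH2 nevertheless made up most of the EZH1 and EZH2 sum in every group, at 75.0%, 77.8% and 71.6%.

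The PRC1 genes held the largest relative difference and some of the smallest. RING1, an E3 ligase for histone H2A and the paralogue of RNF2 (chr6:33176286-33180499 in the authors' coordinates, taken as hg19), was at 5.90 FPKM in control, 14.4 FPKM in treated and 12.6 FPKM in recovery. Control was the lowest group, and the levels after the drug were 2.44 and 2.13 times as high. The q-values for RING1 in the authors' deposited table were 0.910 and 0.934. RNF2, the more abundant ligase, was at 24.1, 20.2 and 18.5 FPKM. RING1 therefore made up 19.7% of the sum of the pair in control, 41.6% in treated and 40.5% in recovery. CBX7, a chromodomain subunit that docks PRC1 on H3K27me3, was at 0.246, 0.745 and 1.43 FPKM, the only member under 2 FPKM, and its ratios to control of 3.03 and 5.83 rest on values near the bottom of the scale. It was given a q of 1 in both comparisons in the authors' deposited table. The other chromodomain subunits barely differed between groups: CBX2 was at 22.4, 23.3 and 21.0 FPKM and CBX8 at 13.9, 14.4 and 14.8 FPKM. CBX7 contributed 0.673%, 1.94% and 3.86% of the summed CBX2, CBX7 and CBX8 level. Over the 10 polycomb genes measured, the median log2 difference was 0.07 for treated and 0.08 for recovery against control, close to that of all genes.

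Among the genes of H3K9 methylation, EHMT2 was the one past 2-fold. EHMT2 (G9a, chr6:31847536-31865484), which with EHMT1 (GLP) deposits H3K9me1 and H3K9me2 in euchromatin, was at 9.70 FPKM in control, 15.7 FPKM in treated and 19.4 FPKM in recovery. Recovery was the highest group, at 2.00 times control, exactly at the bar used here, and treated was at 1.62 times control. For EHMT2 the authors' deposited table gives q-values of 0.932 and 0.766. EHMT1 was at 38.0, 28.8 and 31.8 FPKM and remained the more abundant of the pair, but the share of EHMT2 in their sum was 20.3% in control, 35.3% in treated and 37.9% in recovery. A second entry of EHMT2, on an alternate chromosome 6 haplotype, was listed at 0 in every group, as were all 13 entries on such haplotypes.

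The enzymes that trimethylate H3K9 in pericentric heterochromatin differed by less. SUV39H1 was at 8.32, 11.6 and 8.51 FPKM, highest in treated. SUV39H2 was at 16.9, 12.3 and 9.43 FPKM, highest in control and 1.79-fold lower in recovery. Their sum was split 33.0% to SUV39H1 in control, 48.6% in treated and 47.4% in recovery. SETDB1, the enzyme that silences retroelements with TRIM28, was at 22.5, 22.7 and 18.0 FPKM. SETDB2, a less studied relative that carries the authors' methylation mark, was at 5.24, 2.82 and 3.58 FPKM, 1.86-fold lower in treated than in control. TRIM28 (KAP1), the corepressor that KRAB zinc finger proteins recruit, was at 91.6, 118 and 136 FPKM, lowest in control.

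HP1 proteins, which read H3K9 methylation, showed the one switch of rank between related genes at the top of a set. CBX1 (HP1 beta) was at 90.5 FPKM in control, 58.8 FPKM in treated and 63.4 FPKM in recovery. CBX3 (HP1 gamma) was at 72.4, 70.7 and 82.4 FPKM, and CBX5 (HP1 alpha) was at 46.6, 33.6 and 29.2 FPKM. CBX1 was the most abundant HP1 transcript in control (43.2% of the sum) and CBX3 in both drug-exposed groups (43.4% and 47.1%). With 1 value per group, whether neighbouring levels such as CBX1 and CBX3 in treated differ beyond the spread of libraries was not tested. Of the 12 sets of related genes with at least 2 members measured, 11 had the same most abundant gene in all 3 groups and 10 the same full order. The median log2 difference of the 10 H3K9 genes was -0.21 for treated and -0.28 for recovery against control.

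**Figure D3:**
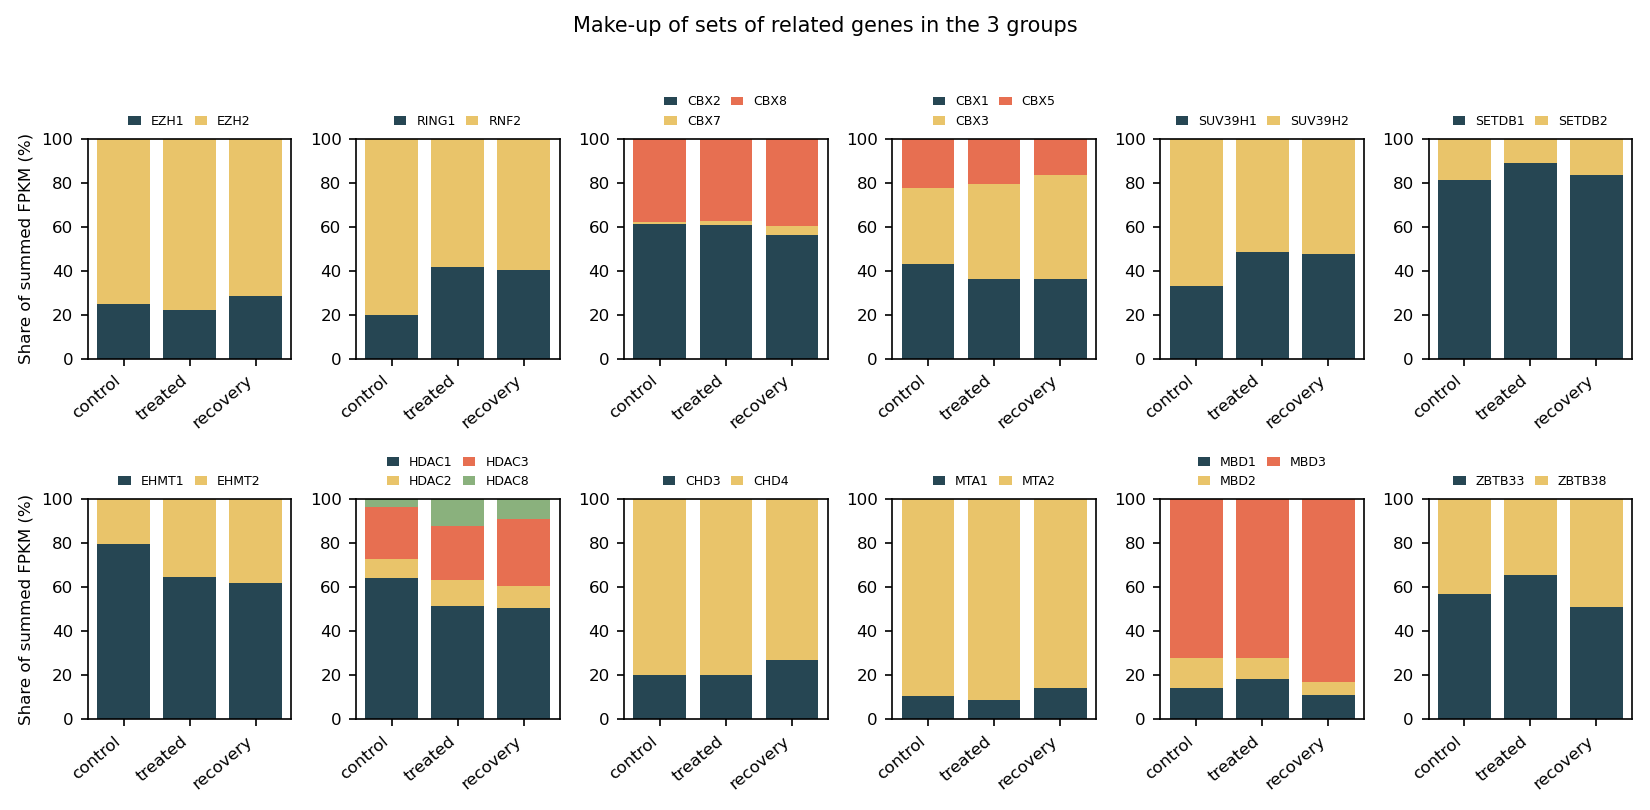
Share of each gene in the summed FPKM of its set of related genes (y axis, percent) in control, treated and recovery, 1 panel per set. The RING1 share is 19.7% in control and 41.6% and 40.5% after the drug, and the HDAC8 share is 3.68%, 12.4% and 9.23%.

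HDAC8 showed the highest ratio to control among members with a mean of at least 5 FPKM. HDAC8 (chrX:71549366-71792953), an X-linked class I deacetylase that works outside the NuRD, SIN3 and CoREST complexes and acts on cohesin, was at 9.44 FPKM in control, 25.3 FPKM in treated and 21.9 FPKM in recovery. Control was lowest, and the other groups lay close together at 2.67 and 2.31 times its level. The authors' deposited table gives HDAC8 q-values of 0.662 and 0.787. The other 3 X-linked members did not reach that size in treated: ATRX was at 21.9, 22.8 and 21.9 FPKM, and SUV39H1 and ZBTB33 were at 1.39 and 1.13 times control.

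The deacetylases inside the complexes were less variable. HDAC1, a catalytic subunit shared by NuRD, SIN3 and CoREST, was at 164, 105 and 119 FPKM, 1.57-fold lower in treated than in control. HDAC2, its close relative and partner, was at 23.1, 24.2 and 23.4 FPKM. HDAC3, a class I enzyme of separate corepressor complexes, was at 59.9, 49.6 and 72.2 FPKM. HDAC1 stayed the most abundant of the 4 class I genes, with 64.0%, 51.4% and 50.4% of their sum, and HDAC8 held 3.68%, 12.4% and 9.23%. In control the HDAC1 level was 17.4 times that of HDAC8, and in treated and recovery it was 4.15 and 5.46 times.

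The ATPases, scaffolds and demethylase of these complexes on the list lay within 1.5-fold of control in both groups. CHD4, the main NuRD ATPase, was at 82.0, 101 and 70.4 FPKM and its paralogue CHD3 at 20.2, 25.0 and 26.0 FPKM. MTA2, a NuRD scaffold, was at 137, 138 and 120 FPKM, and MTA1 at 15.7, 12.7 and 19.5 FPKM. SIN3A, the scaffold of the SIN3 complex, was at 19.3, 20.7 and 15.3 FPKM. KDM1A (LSD1), the H3K4 demethylase of CoREST, was at 81.5, 100.1 and 92.0 FPKM, while its scaffold RCOR1 was at 8.53, 9.38 and 5.98 FPKM and lowest in recovery. For the 11 genes of this class the median log2 difference was 0.10 for treated and 0.02 for recovery against control.

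DAXX had the lowest treated ratio to control and the lowest q of any member. DAXX (chr6:33286335-33290793), a chaperone that with ATRX places histone variant H3.3 at repeats and telomeres, was at 56.2 FPKM in control, 26.1 FPKM in treated and 34.0 FPKM in recovery. Control was the highest group, and DAXX was 2.15-fold lower in treated and 1.65-fold lower in recovery. In the authors' deposited table its q-values were 0.491 and 0.890. The level of DAXX was 2.57 times that of ATRX in control, 1.14 times in treated and 1.55 times in recovery, while ATRX itself was within 1.05-fold of control.

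**Figure D4:**
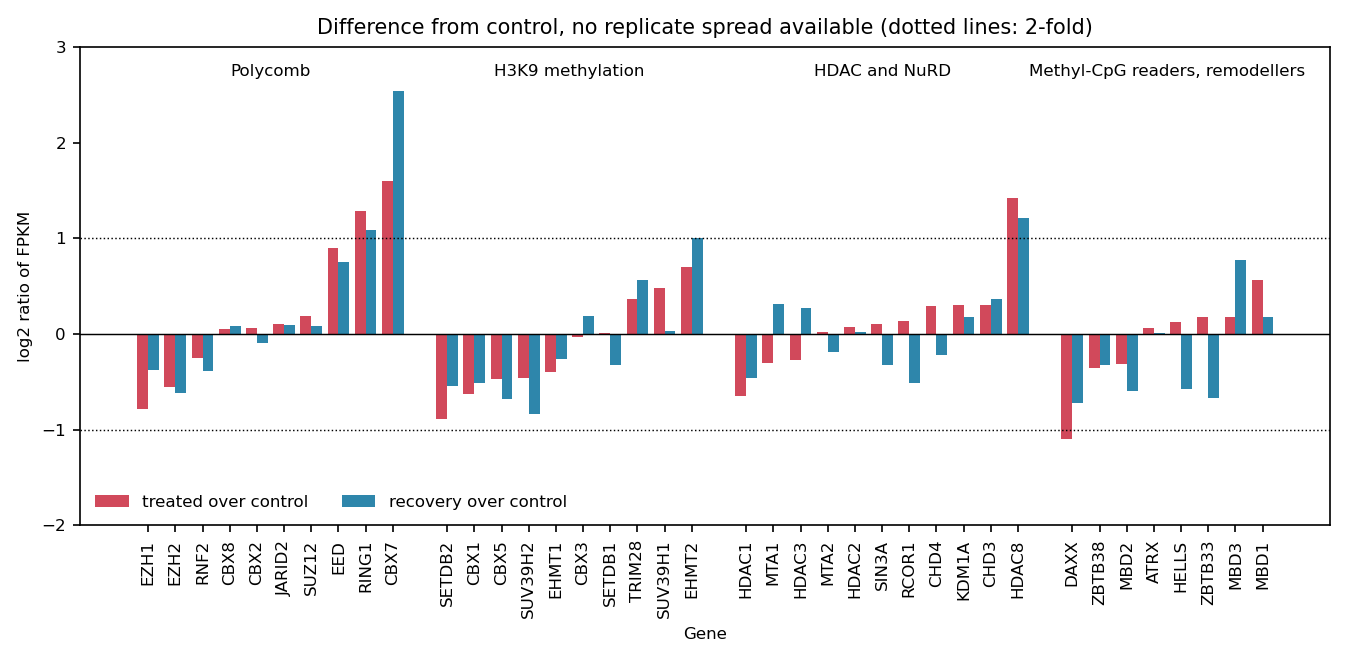
Log2 ratio of FPKM to control (y axis) for each of the 39 members, treated and recovery side by side, by class. The dotted lines mark 2-fold, which HDAC8, RING1, CBX7 and EHMT2 reach above 0 and DAXX below it.

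The methyl-CpG readers gave no common direction. MBD1, a repressor that binds methylated CpG and carries the authors' methylation mark, was at 11.9, 17.5 and 13.5 FPKM, highest in treated. MBD2, the reader that brings NuRD to methylated DNA, was at 11.7, 9.44 and 7.74 FPKM. MBD3, which takes the same place in NuRD but binds methylated CpG poorly, was at 61.7, 69.9 and 106 FPKM, with recovery 1.71 times control. The MBD3 level was thus 5.27 times that of MBD2 in control, 7.41 times in treated and 13.7 times in recovery, and MBD3 made up 72.3%, 72.1% and 83.3% of the MBD1, MBD2 and MBD3 sum. The recovery q of MBD3 in the authors' deposited table was 0.833.

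Of the zinc finger readers, ZBTB33 (Kaiso) was at 16.7, 19.0 and 10.5 FPKM, 1.81-fold lower in recovery than in treated, and ZBTB38 was at 12.7, 9.95 and 10.2 FPKM. HELLS (LSH), a remodeller needed for methylation of repeats, was at 67.1, 73.0 and 45.1 FPKM, so that for both ZBTB33 and HELLS recovery was the low group and treated lay near control. The median log2 difference of the 8 genes of this class was 0.09 for treated against control and -0.42 for recovery, where 3 were higher and 5 lower. Recovery is 1 library. The commonest ratio of the deposited values (98 of 12095 genes), taken as 1 fragment against 1, would give it about 0.652 times the fragments of control. That reading was not checked against library sizes. The part of depth in that median was not tested.

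**Figure D5:**
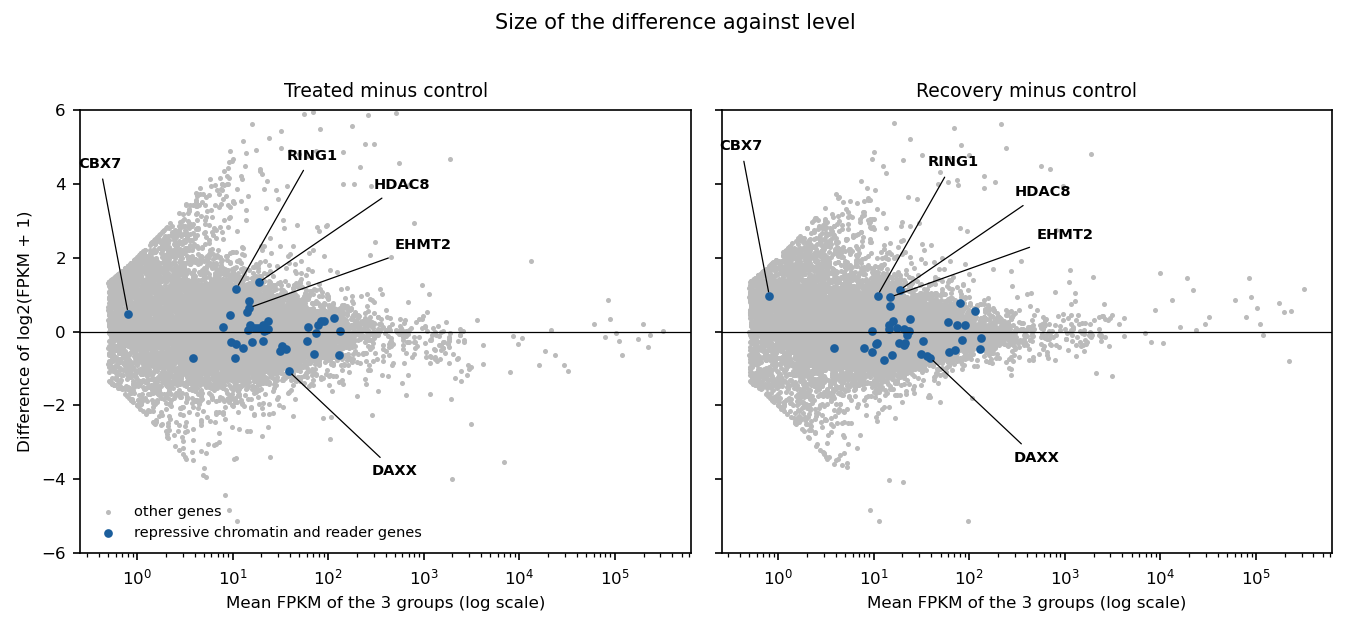
Difference of log2(FPKM + 1) from control (y axis) against the mean FPKM of the 3 groups (log x axis) for all genes averaging at least 0.5 FPKM, members in blue. The members sit within the cloud of other genes of their level. The y axis leaves out 18 genes for treated and 23 for recovery, none of them a member.

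The 5 members without an entry of their own are covered by merged or neighbouring entries, whose values cannot be assigned to them. BMI1 (PCGF4), a PRC1 subunit that stimulates the ligase, lies in the entry of the COMMD3-BMI1 readthrough transcript, at 49.6, 51.3 and 57.0 FPKM. PCGF1, of variant PRC1, lies in the entry named for LBX2-AS1, at 0.0823, 1.73 and 3.41 FPKM, and PCGF2 (MEL18) lies in that of CISD3, at 5.37, 8.12 and 9.98 FPKM. ZBTB4, a zinc finger reader, lies in the entry of SLC35G6, at 0.186, 0.141 and 1.43 FPKM. MBD4, a glycosylase that repairs deaminated methyl-CpG, neighbours the gene IFT122. The entry named for IFT122 exceeds that gene by 9280 bases, where MBD4 spans 9002, and was at 10.5, 5.19 and 8.18 FPKM. Each of these entries is longer than the gene it is named for except that of COMMD3-BMI1, which matches its gene to within 6 bases. Of the 39 members with an entry, 5 overlap another protein-coding gene in GRCh38.p14 (SUV39H2, CHD3, SETDB2, KDM1A and ZBTB33), and how overlapping reads were shared between such genes is not given in the sources used here. No lncRNA locus of the second deposited table overlapped a member or lay within 5 kb of one, among 9423 distinct spans.

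The authors' table carries 2 marks per gene, headed SOM, an abbreviation the sources used here leave unexplained. On the members the DNA methylation mark reads Affected and the expression mark reads High_expression. What these values stand for is not given there either. The DNA methylation mark stood on EHMT2, MBD1 and SETDB2, or 7.69% of the members in the authors' deposited table, against 14.1% of all entries and 8.41% of entries at 5 FPKM or more in control. Those 3 genes gave no common direction: EHMT2 and MBD1 were at 1.62 and 1.47 times control in treated, and SETDB2 was 1.86-fold lower. The expression mark stood on 16 members (41%), among them HDAC1, CHD4, TRIM28, HELLS and the 3 HP1 genes, against 12.8% of all entries and 27.3% of those at 5 FPKM or more in control, in the authors' deposited table.

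Other genes of the same pathways, from lists that do not overlap the members, gave 0 calls at q under 0.05 in either comparison in the authors' deposited table. Over all entries with q under 1, 1.36% were called for treated and 1.34% for recovery. At those rates few calls would fall among lists of this size, so a count of 0 does not set them apart. Measured were 33 of 34 further polycomb genes, 25 of 30 of H3K9 methylation, 35 of 38 of the deacetylase complexes and 20 of 23 readers, maintenance factors and chaperones. The lowest q-values of the 4 lists for treated in the authors' deposited table were 0.248, 0.686, 0.702 and 0.807. Of the 32 further polycomb genes averaging at least 0.5 FPKM, 5 were at least 2-fold higher and 2 at least 2-fold lower in treated than in control. Over all genes 22.7% passed that bar, 12.4% higher and 10.4% lower, so the list was near the share of all genes. The 3 with the largest differences were all higher. PHF1, an accessory PRC2 subunit, was at 1.51, 8.07 and 10.8 FPKM. CBX6, a chromodomain subunit of PRC1, was at 5.43, 19.9 and 11.6 FPKM, and BCORL1, a corepressor of variant PRC1, was at 0.267, 3.16 and 1.19 FPKM. These 3 were picked by the size of their treated difference, and over the 32 genes the median log2 difference for treated was 0.10. The 2 lower genes, named after their values were seen, were PHC1, a PRC1 subunit, at 4.85, 1.33 and 1.93 FPKM, and MTF2, an accessory PRC2 subunit, at 37.3, 17.7 and 25.9 FPKM.

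The 3 H3K9 genes with the largest treated differences were lowest in control, while the median log2 difference for treated over the 25 measured was -0.04. PHF8, an X-linked demethylase, was at 7.83, 16.0 and 16.8 FPKM, PRDM2 at 2.02, 4.70 and 2.81 FPKM and KDM3B, a demethylase of H3K9me1 and H3K9me2, at 18.5, 32.3 and 21.5 FPKM. Of the deacetylase list, MTA3, the third MTA scaffold, was at 27.3, 12.4 and 9.82 FPKM and KDM1B (LSD2) at 11.2, 5.15 and 4.33 FPKM, both highest in control. Of the last list, MBD6 was at 0.938, 3.80 and 2.23 FPKM, the H3.3 chaperone HIRA at 6.12, 12.7 and 10.6 FPKM, and UHRF2, a relative of the maintenance factor UHRF1, at 33.5, 18.3 and 23.0 FPKM.

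The cell line was checked against its markers. The entry named for KRT18 (chr12:53290971-53346685) was at 231, 418 and 214 FPKM and VIM at 316, 181 and 246 FPKM. KRT8 has no entry of its own, and whether the KRT18 entry also holds its reads was not tested. Of the renal lineage factors, PAX2 was listed at 0 in control and recovery and at 0.146 FPKM in treated, LHX1 was at 1.83, 0.390 and 0.966 FPKM, and SALL1 was at 1.91, 2.55 and 1.38 FPKM. Summed over 5 blood genes the level was 0.317, 5.79 and 0.970 FPKM (4, 2 and 4 of the 5 listed at 0), and over 5 endothelial genes 0.0621, 2.24 and 0.758 FPKM. Over 6 fibroblast genes it was 8.54, 5.78 and 12.3 FPKM, and over 4 genes of other epithelia 1.71, 3.48 and 0.561 FPKM. The part of these levels in the members' values was not tested.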

How the data were processed

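RNA of HEK 293T cells (2 control, 2 treated and 1 recovery library) was depleted of ribosomal RNA and made into strand-marked libraries, per the labels' protocols. Levels come from Cufflinks and Cuffdiff and the builds listed are hg19 and mm9, per the submitters' processing notes; positions are read as hg19 and printed counted from 1. For the aligner, the annotation release, the settings and the use of strand in counting, the entry is: not given in the sources used here. Per gene and group 1 FPKM was deposited by the authors, with libraries already combined, and a q-value for treated and for recovery against control, per the file headers. The authors' call was yes exactly where q was under 0.05, in 20220 of 20220 entries.

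The members and all lists were chosen with earlier results of these data known. One of 20221 RefSeq entries and 2 of 21627 lncRNA entries with shifted cells were left out. Identifiers were matched to symbols with the RefSeq gene table (GRCh38.p14), 19665 of 20220 entries. Differences are of log2(FPKM + 1), which understates those of low genes, over genes averaging at least 0.5 FPKM; ratios are of FPKM with both sides above 0. No test was added: only the authors' q-values were used. Named are all members, called genes of the other lists and the 3 genes per list with the largest treated difference; some genes that the rule names are not reported here. Between groups, the commonest ratio over genes above 0 in both was 0.757 for treated over control (86 of 12366 genes). For recovery over control it was 1.53 (98 of 12095). Taken as 1 fragment against 1, these would be 1.32 and 0.652 times the fragments of control. That reading was not checked against library sizes, and the control and treated values each combine 2 libraries. The tables hold no fragment counts per gene, so no counting interval is given. Alternatives were another q threshold, 1.5-fold and 3-fold bars, other pseudocounts, filters and scalings. Scripts ran in Python 3.11.15 with pandas 2.3.3 and were tested on simulated data.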

Additional observations from a re-analysis of the deposited data

How the results depend on the processing

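At q under 0.10 the authors' deposited table still called 0 members in either comparison, where 218 and 182 of all genes passed. With a 1.5-fold bar, 10 of 39 members differed between treated and control, 12 between recovery and control and 6 between recovery and treated. Over all 12712 genes those shares were 41.5%, 36.8% and 34.3%. With a 3-fold bar 1, 1 and 0 of 39 members did, against 1481, 1312 and 916 of the 12712 genes. Rescaling to the same median ratio (factors 0.989 and 0.985) left 4, 4 and 0 members past 2-fold, against 2871, 2514 and 2123 of all genes. Without RING1, DAXX and EHMT2, the 3 members in the chromosome 6 span described below, 2 members were past 2-fold for treated and 2 for recovery. Over all genes the shares past 2-fold were 22.7% and 19.8%. This alternative was chosen after seeing the data, as was a mean of 5 FPKM for that count. Over all pseudocounts, filters and scalings run, the members' median log2 difference kept its sign, between 0.06 and 0.10 for treated, between -0.10 and -0.04 for recovery and between -0.10 and -0.06 for recovery against treated. Without the 3 chromosome 6 members it was 0.06, -0.14 and -0.08. The distance from all genes did vary. With quantile scaling the members' medians were 0.102, -0.042 and -0.093, and those over all genes -0.021, -0.037 and -0.001. At that setting the recovery median of the members was close to that of all genes. Overlap in place of a 5 kb distance gave 0 lncRNA loci as well. No paired analysis was possible because the deposited values are 1 per gene and group, so neither the replicate block nor leaving out a replicate was run. The depth behind each value is unknown, and CBX7 is the one member with a mean below 1 FPKM.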

Other observations

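Of the 5 members past 2-fold in either comparison with control, RING1, DAXX and EHMT2 lie between 28 and 34 Mb on chromosome 6 (hg19), the gene-dense region that holds the major histocompatibility complex, a span chosen after the values were seen. The other pathway gene with the largest treated difference in its list, PHF1, lies there too. Among entries of this span with a mean of 5 FPKM or more, 16 of 80 (20%) were past 2-fold between treated and control, 11 higher and 5 lower, against 14.5% of all other entries at that level. Between recovery and control it was also 20%, with 13 higher and 3 lower, against 11.7%. RING1, DAXX, EHMT2 and PHF1 led to the choice of the span, and without them the share was 17.1% in both comparisons (13 of 76). Between recovery and treated it was 6 of 80 (7.5%) against 8.48% of the other entries. Neighbours of DAXX differed in direction. TAPBP, the peptide-loading factor tapasin, was at 5.46, 13.1 and 17.5 FPKM, in the group order used above, and RGL2 at 3.40, 8.14 and 7.41 FPKM. ZBTB22, next to DAXX, was at 19.2, 13.2 and 14.3 FPKM, lower than control after the drug as DAXX was. None of these differences passed the authors' test at q under 0.05 in the authors' deposited table.

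The lncRNA locus nearest to any member lay 5485 bases from ZBTB33 and, in a table normalized apart, was at 176 FPKM in control, 87.4 FPKM in treated and 203 FPKM in recovery. Its q-values in the authors' deposited table were 0.700 for treated and 0.955 for recovery. The locus was lowest in treated, where ZBTB33 was highest but only 1.13 times control. A relation between the 2 was not tested.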
